A study of Drosophila melanogaster with 2 samples.

Results

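The proteasome subunit genes of *Drosophila melanogaster* are described here by where the nuclear receptor Hr39 was found around them by chromatin immunoprecipitation and sequencing (ChIP-seq). The 48 genes are the protein-coding genes whose symbols start with Prosalpha or Prosbeta, or are Rpn or Rpt followed by a digit, out of 13945 protein-coding genes on the analysed chromosome arms. The rule uses symbols alone and no measured value, though the group was picked for description with earlier results of these data known. They comprise 14 genes of the core particle (7 of the alpha ring and 7 of the beta ring), 18 genes of the regulatory cap (6 Rpt and 12 Rpn), and 16 related copies. The copies carry a T (4 genes) or an R (12 genes) after the subunit number, and they were kept apart from the 32 core and cap genes.

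The animals were of the strain Hr39-RC-GFP, a transgenic line that stably expresses Hr39 with GFP fused to its C terminus (also labelled eGFP). Whole animals of both sexes, pooled, were taken as white prepupae, the immobile stage at which metamorphosis opens; their age in hours is given as unknown. Chromatin was sheared by sonication and precipitated with an antibody against GFP. There is 1 group with 2 biological replicates, named 1 and 3, and all animals carry the fusion. What drives the transgene is not given in the sources used here. No precipitation from animals without the fusion was analysed here, so signal that depends on Hr39 could not be told apart from other signal. In whole animals, binding in few cells and weak binding in many cells cannot be told apart.

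The proteasome is the protease that degrades proteins tagged with ubiquitin. Its barrel-shaped core is built from outer alpha rings, which gate the channel, and inner beta rings, which hold the proteolytic sites. The cap binds the ubiquitin chain, removes it, and unfolds the protein with its Rpt ATPases. Because the subunits are needed together, their genes are known in animals as a group with coordinated transcription, which Cnc (the fly Nrf factor) raises when proteasome activity falls. Hr39 is an orphan nuclear receptor of the NR5 family.

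Each deposited region carries a signal, a value set by the authors, and a summit, the position of its maximum. Regions were ranked within a list by signal, with rank 1 the highest. The optimal set holds the 7426 regions on the arms that, by its label, passed the authors' threshold on the irreproducible discovery rate (IDR). IDR is a measure of reproducibility, and the label does not say which lists were compared. At every member with a peak in it, the rank and signal equalled those in the pooled list described next. A region in it need not have a candidate in both replicates, and those at Rpn11 and Prosbeta1 had none in replicate 1. The candidate lists, which include background on purpose, hold 28752 regions for the pooled replicates, 29999 for replicate 1 and 29972 for replicate 3. For each replicate, its 7426 regions of highest signal are called its top regions. Signal in the optimal set ran from 98.5 to 6049 with a median of 203. A gene was counted as having a promoter peak where a summit lay within 1000 bp of any of its annotated transcription start sites (TSSs). Distances are negative upstream of the TSS. Peak lists hold no read counts, so the depth of the libraries is unknown. With 1 group of 2 replicates the design has no comparison between conditions to test, and counts are set beside the share of all protein-coding genes counted in the same way.

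Hr39 peaks of the optimal set lay at the promoters of 8 of the 48 proteasome genes. The 8 were Rpn2, Rpn3, Rpn5, Rpn11, Rpn12 and Rpn13 of the cap, and Prosalpha5 and Prosbeta1 of the core. This was 16.7% of the members, beside 25.2% of all protein-coding genes. The gap depends on the distance allowed: within 250 bp of a TSS the members stayed at 16.7% and all genes fell to 16.5%. Among the 32 core and cap genes the share was 25%, close to the share of all genes, and among the 16 related copies it was 0 of 16. Cap genes had a peak in 6 of 18 cases (33.3%) and core genes in 2 of 14 (14.3%). Within 2000 bp the cap share was the same and the core share was 28.6%, with Prosbeta6 and Prosalpha4 added. By the 2 replicates, the share of core and cap genes with a top region at the promoter was 29.7% ± 11.0 (SD, n = 2). That of all genes was 26.2% ± 2.57 (SD, n = 2). These SDs show how the 2 lists differ for the same genes, not the uncertainty from the number of genes. The cap share was 38.9% ± 15.7 and the core share 17.9% ± 5.05 (SD, n = 2 each), and the difference between core and cap was not tested.

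**Figure D1:**
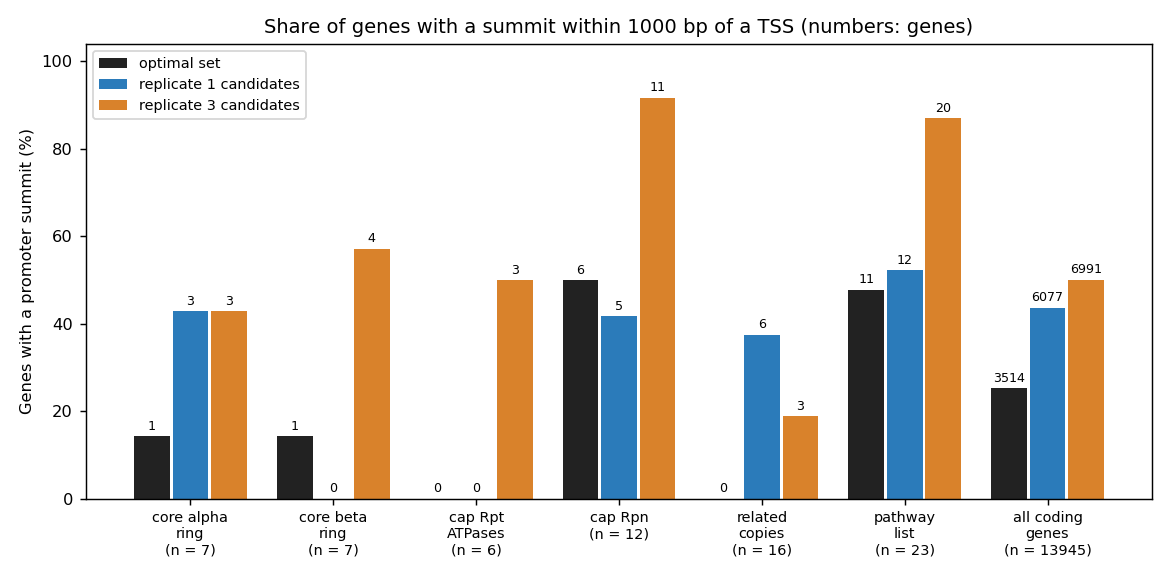
Share of genes (percent, with the number of genes over each bar) that have a summit within 1000 bp of a TSS, for the alpha ring, the beta ring, Rpt, Rpn, the related copies, the pathway list and all protein-coding genes, in the optimal set and in the candidates of each replicate. The Rpn share is 41.7% in replicate 1 and 91.7% in replicate 3, while that of all genes is 43.6% and 50.1%.

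The strongest promoter peak of any proteasome subunit gene was at Rpn5, a PCI-domain subunit of the lid, the part of the cap that carries the deubiquitinase. Its summit, 284 bp upstream of the TSS, had an optimal-set signal of 709, with 337 in replicate 1 and 369.5 in replicate 3. The ranks were 594, 599 and 633, so both replicates placed it at nearly the same height. The region spans chr3R:5788994-5789534 (dm6) and holds another optimal summit 64 bp upstream of the TSS, at rank 2514. Rpn3, another PCI-domain subunit of the lid, followed with an optimal-set signal of 521, and values of 228 in replicate 1 and 292 in replicate 3. Its summit lay 7 bp downstream of the TSS in chr2L:19051700-19051933, at ranks 1012, 1127 and 932. Rpn5 and Rpn3 were the 2 members with a signal above the median of the optimal set. Of all genes with a promoter peak, 63.3% had their strongest one above that median, against 25% of the 8 members.

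The sequence at these summits is shown because the peaks of the Rpn genes sat on DNA poor in G and C. Each line gives the 101 bases centred on the optimal summit, read 5′ to 3′ on the strand of the gene, with the 11 bases at the summit in capitals. The sequences come from the RefSeq copy of the Release 6 (dm6) genome. The windows are chr3R:5789159-5789259 for Rpn5, chr2L:19051747-19051847 for Rpn3, chr2L:5059871-5059971 for Rpn11, chr3L:16582882-16582982 for Rpn12 and chr3R:29153369-29153469 for Rpn2.
Rpn5: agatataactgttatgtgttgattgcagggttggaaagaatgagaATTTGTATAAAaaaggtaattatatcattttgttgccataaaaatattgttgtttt
Rpn3: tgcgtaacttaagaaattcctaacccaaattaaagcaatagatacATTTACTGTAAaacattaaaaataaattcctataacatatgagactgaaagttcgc
Rpn11: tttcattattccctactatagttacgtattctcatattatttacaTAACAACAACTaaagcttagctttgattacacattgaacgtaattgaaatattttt
Rpn12: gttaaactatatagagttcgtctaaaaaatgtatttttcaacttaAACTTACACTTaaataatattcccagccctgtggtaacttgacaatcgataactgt
Rpn2: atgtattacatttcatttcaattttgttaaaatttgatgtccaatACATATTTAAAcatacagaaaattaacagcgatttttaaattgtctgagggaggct

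G and C made up 25.7% of the Rpn5 window, 27.7% of that of Rpn3, 24.8% of that of Rpn11, 29.7% of that of Rpn12 and 25.7% of that of Rpn2. The windows of Prosbeta1 (42.6%) and Prosalpha5 (36.6%) were richer than those of the 6 Rpn genes. Over the 8 members the mean was 30.1% ± 6.28 (SD, n = 8 peaks), beside 35.3% ± 8.83 (SD, n = 3203) over all optimal summits at promoters. The means differed by less than either SD, but these SDs measure the scatter between peaks, not the uncertainty of a mean. The difference was not tested.

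The remaining Rpn peaks were of middling height. Rpn11, the metalloprotease that cuts ubiquitin chains from the substrate, had an optimal-set signal of 185, at rank 4083, and a replicate 3 signal of 100.5, at rank 4232. Its region was chr2L:5059723-5060118, with the summit 131 bp upstream of the TSS. Replicate 1 had no candidate summit within 100 bp of it, nor any within 1000 bp of the TSS. Rpn12, a lid subunit, had an optimal-set signal of 183, with 60.7 in replicate 1 and 116 in replicate 3. Its summit lay 96 bp upstream of the TSS, in chr3L:16582734-16583129, and replicate 3 ranked it higher (3622) than replicate 1 (5698). Rpn2, the large scaffold subunit of the base, had an optimal-set signal of 121, with 46.3 in replicate 1 and 74.0 in replicate 3. It was the lowest of the 8 in rank, at 6272, with ranks of 7209 and 5912 in the replicates and the summit 105 bp upstream of the TSS in chr3R:29153221-29153616. Rpn13, a receptor for ubiquitin, had an optimal-set signal of 198, with 77.4 in replicate 1 and 108 in replicate 3. Both replicates held its summit 41 bp upstream of the TSS to within 100 bp, at ranks 4472 and 3938, against 3814 for the optimal set, and its region was chr2R:13960247-13960642.

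The other Rpn genes had no optimal promoter peak. These were Rpn1, a base scaffold that docks shuttle proteins; Rpn6, Rpn7 and Rpn9, PCI-domain subunits of the lid; Rpn8, the partner of Rpn11; and Rpn10, a ubiquitin receptor. Rpn9 had a pooled candidate at rank 18732, below the reach of the optimal set. Of the 12 Rpn genes, 6 had an optimal peak, 7 a pooled candidate, 5 a candidate in replicate 1 and 11 a candidate in replicate 3. The exception in replicate 3 was Rpn1. These counts were 50%, 58.3%, 41.7% and 91.7% of the Rpn genes, beside 25.2%, 43.5%, 43.6% and 50.1% of all genes. A split of the Rpn genes into the lid and the others was made after the values were seen. All 8 lid genes (Rpn3, Rpn5, Rpn6, Rpn7, Rpn8, Rpn9, Rpn11 and Rpn12) had a replicate 3 candidate, 3 had a replicate 1 candidate and 4 an optimal peak. Of the 4 other Rpn genes, 3, 2 and 2 did. The lid shares were 100% in replicate 3, 37.5% in replicate 1 and 50% in the optimal set. Those of all genes were 50.1%, 43.6% and 25.2%. The replicate 3 summits at Rpn6 and Rpn8 were counted at a TSS inside the gene, and lay 534 and 2807 bp downstream of the gene start.

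None of the 6 Rpt genes, which encode the ATPases that unfold the substrate, had an optimal promoter peak. Rpt3 had a pooled candidate at rank 10120, with a summit 205 bp upstream of the TSS. In replicate 3 there were candidates at Rpt2 (rank 9466, signal 44.3), Rpt6 (rank 12017, signal 33.2) and Rpt3 (rank 16783, signal 22.4). All 3 lay below the top regions of that replicate. Replicate 1 had no candidate at any Rpt gene, and no list had one at Rpt1, Rpt4 or Rpt5. Of all genes, 25.2% had an optimal promoter peak, 43.6% a replicate 1 candidate and 50.1% a replicate 3 candidate.

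In the alpha ring, Prosalpha5 was the member with an optimal peak. Its summit 61 bp upstream of the TSS had an optimal-set signal of 124, with 55.6 in replicate 1 and 65.2 in replicate 3, at ranks 6132, 6161 and 6672, in chr2R:17412508-17412903. Prosalpha4 came close. Its summit 323 bp upstream of the TSS had rank 7794 in the pooled list, just past the 7426 regions of the optimal set, and replicate 1 (rank 6120, signal 56.0) placed it higher than replicate 3 (rank 11550, signal 34.8). Prosalpha3 had a candidate in replicate 1 alone (rank 10290) and Prosalpha2 in replicate 3 alone (rank 4476). Prosalpha1, Prosalpha6 and Prosalpha7 had none in any list.

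In the beta ring, Prosbeta1, which carries the caspase-like activity, had the optimal peak. Its summit 85 bp upstream of the TSS had an optimal-set signal of 163, at rank 4671, and a replicate 3 signal of 64.6, at rank 6736. The region was chr2R:16014674-16015069. Replicate 1 had no candidate summit within 100 bp of it. The genes of the other catalytic subunits, Prosbeta2 (trypsin-like) and Prosbeta5 (chymotrypsin-like), had no optimal peak, and their replicate 3 candidates were low, at ranks 20122 and 29242. Prosbeta7 had a replicate 3 candidate at rank 17896. Prosbeta3, Prosbeta4 and Prosbeta6 had none in any list. Replicate 1 had no candidate at any of the 7 beta genes, beside 43.6% of all genes. Replicate 3 had 4 (57.1%), beside 50.1% of all genes.

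**Figure D2:**
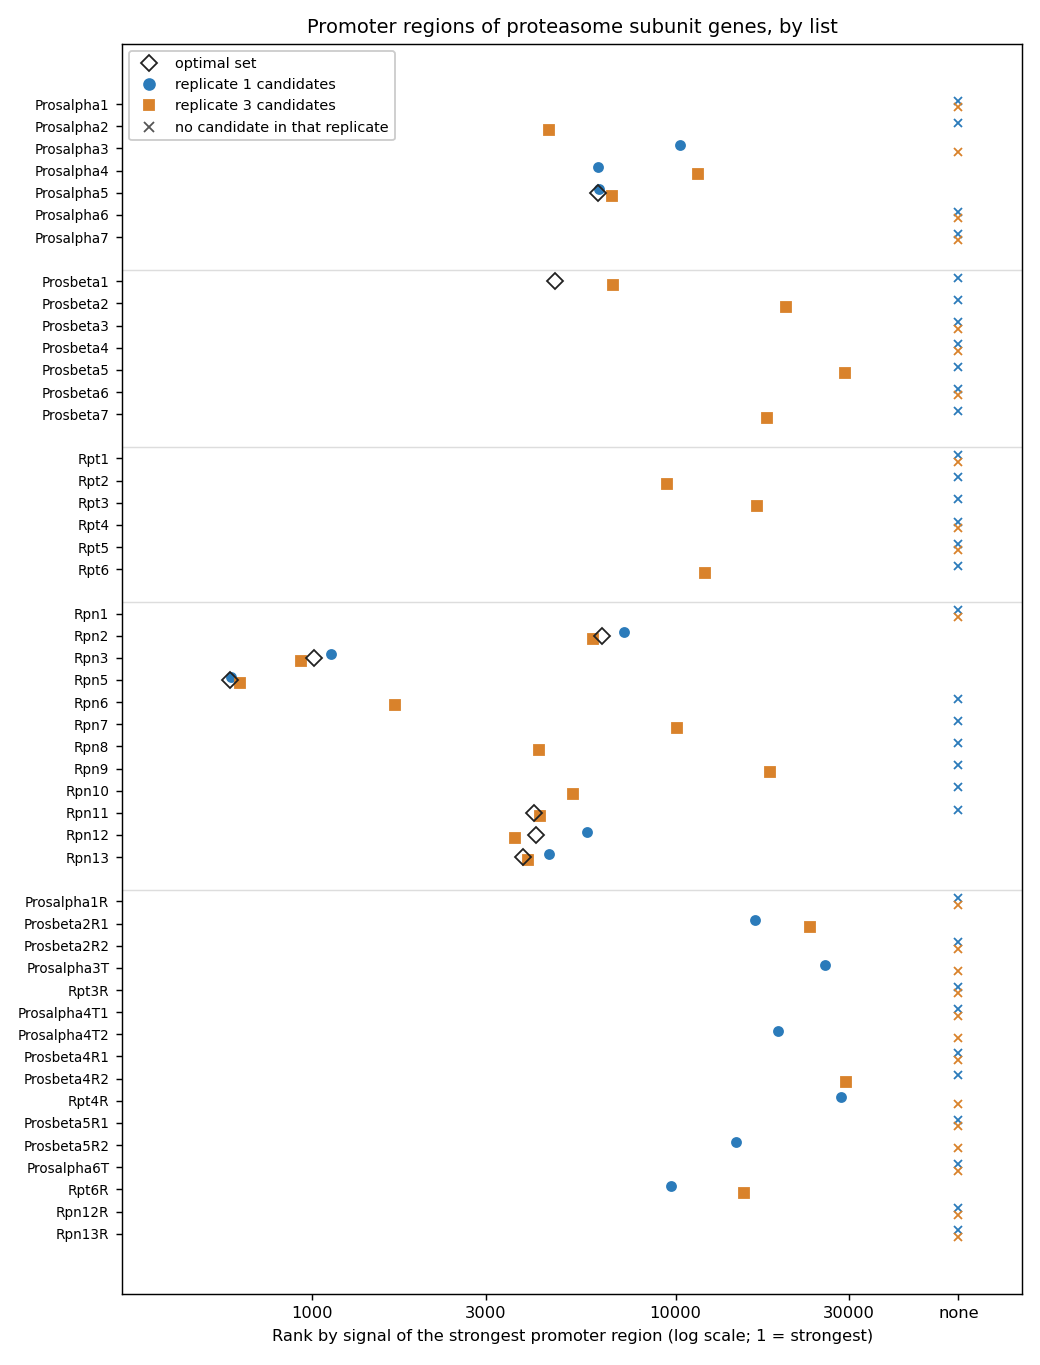
Rank by signal (log axis, 1 the highest) of the strongest promoter region of each proteasome gene in the optimal set (diamonds), replicate 1 (circles) and replicate 3 (squares), with a cross where a replicate had no candidate. Rpn5 and Rpn3 lie furthest to the left, and 14 core and cap genes have a square and a cross for replicate 1.

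The related copies, of which several are known to be expressed in the testis, had no optimal promoter peak and no top region of either replicate within 1000 bp of a TSS. Rpt6R had the highest candidate, at rank 12277 in the pooled list, 9722 in replicate 1 and 15399 in replicate 3. Prosbeta2R1 also had candidates in replicate 1 (rank 16553), replicate 3 (rank 23446) and the pooled list (rank 27008). Prosbeta5R1 had a pooled candidate alone (rank 26319), and Prosbeta5R2 a pooled one (rank 25750) and a replicate 1 one (rank 14626). Prosalpha3T, Prosalpha4T2 and Rpt4R had low candidates in replicate 1, at ranks 25723, 19126 and 28571, and Prosbeta4R2 one in replicate 3 at rank 29403. No list had a candidate at Prosalpha1R, Prosalpha4T1, Prosalpha6T, Prosbeta2R2, Prosbeta4R1, Rpn12R, Rpn13R or Rpt3R. Of the 16 copies, 4 had a pooled candidate (25%), 6 a replicate 1 candidate (37.5%) and 3 a replicate 3 candidate (18.8%), each below the share of all genes. How reads that match several copies of a gene were placed is not given in the sources used here.

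Across all candidates, the pooled list had a summit at 15 of the 48 members (31.2%), beside 43.5% of all genes. Replicate 1 had one at 14 members (29.2%), beside 43.6% of all genes. Replicate 3 had one at 24 of the 48 members, beside 50.1% of all genes. Both replicates had a candidate at 9 members (18.8%), beside 35.1% of all genes. Among top regions, replicate 1 had 7 members (14.6%), beside 24.4% of all genes, and replicate 3 had 12 (25%), beside 28.0%. The members' share was at or below the background in each of these lists, and nearest to it in replicate 3.

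The replicates differed widely at the core and cap genes. Replicate 1 had candidates at 8 of the 32 (25%) and replicate 3 at 21 (65.6%), a mean of 45.3% ± 28.7 (SD, n = 2), where all genes had 46.9% ± 4.63 (SD, n = 2). At 14 core and cap genes (43.8%) and at 15 members (31.2%) there was a candidate in replicate 3 and none in replicate 1, beside 15.1% of all genes. The reverse held at 1 core gene, Prosalpha3, and at 5 members (10.4%), beside 8.51% of all genes. The 14 genes were Prosalpha2, Prosbeta1, Prosbeta2, Prosbeta5, Prosbeta7, Rpt2, Rpt3, Rpt6, Rpn6, Rpn7, Rpn8, Rpn9, Rpn10 and Rpn11. Among the members, the excess of replicate 3 thus lay in the core and cap, and the related copies had 1 such gene. An excess was also seen outside the members. Of the 23 genes that act with the proteasome, described further on, 8 (34.8%) had a candidate in replicate 3 and none in replicate 1. The reverse held at 0 of them. With 2 replicates, whether this is chance was not tested, and its cause was not tested.

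The difference was not confined to weak regions. Of the 14 genes, 6 had a top region of replicate 3, and Prosbeta1 and Rpn11 were in the optimal set. The other 4 of these 6 had no pooled summit within 100 bp. The highest was Rpn6, with a signal of 203 at rank 1689 in replicate 3. Its summit lay 105 bp upstream of a TSS inside the gene and 534 bp downstream of the gene start. The nearest pooled summit was 16867 bp away and the nearest replicate 1 summit 6320 bp away. Rpn8 (rank 4214, signal 101), Prosalpha2 (rank 4476, signal 95.7) and Rpn10 (rank 5215, signal 83.7) had their nearest pooled summits 15254, 8410 and 13275 bp away. The Rpn8 summit lay 170 bp upstream of a TSS inside the gene and 2807 bp downstream of the gene start. None of the 4 is in the optimal set, although replicate 3 ranked all 4 above Prosalpha5 (6672) and Prosbeta1 (6736). Of the 12 core and cap genes with a top region of replicate 3, 4 lacked a pooled summit within 100 bp (33.3%), beside 13.0% of all such genes. For every top region, at a promoter or not, the share without one was 6.69% in replicate 3 and 3.46% in replicate 1. These counts were chosen after the values were seen.

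The replicate 3 summits at Prosalpha2, Rpn10, Rpn7 and Rpt2 are shown as examples of those found in that replicate only, the first pair among its top regions and the others below them. They are written in the same way, 101 bases on the strand of the gene with the 11 bases at the summit in capitals, from the RefSeq copy of dm6. The windows are chr3R:12431096-12431196 for Prosalpha2, 175 bp upstream of the TSS, chr3L:21536966-21537066 for Rpn10, 16 bp downstream, chr3R:22462226-22462326 for Rpn7, 222 bp upstream, and chr3R:23931503-23931603 for Rpt2, 5 bp downstream.
Prosalpha2: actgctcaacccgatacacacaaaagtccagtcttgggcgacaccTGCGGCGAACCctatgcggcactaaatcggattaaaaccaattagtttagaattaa
Rpn10: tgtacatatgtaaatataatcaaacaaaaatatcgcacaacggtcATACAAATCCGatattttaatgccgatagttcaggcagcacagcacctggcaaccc
Rpn7: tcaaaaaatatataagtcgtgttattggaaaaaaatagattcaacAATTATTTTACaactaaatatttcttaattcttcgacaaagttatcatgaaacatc
Rpt2: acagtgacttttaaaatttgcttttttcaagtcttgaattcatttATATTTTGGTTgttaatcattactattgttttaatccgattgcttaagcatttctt

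G and C made up 45.5% of the Prosalpha2 window 38.6% of the Rpn10 window, 21.8% of the Rpn7 window and 24.8% of the Rpt2 window. Prosalpha2 and Rpn10 lay above the 5 Rpn windows of the optimal set printed before, and Rpn7 and Rpt2 at or below the lowest of them.

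Where members had a peak, it lay close to the TSS. The median distance of the 8 strongest summits was 90.5 bp, with a range of 7 to 284, beside a median of 195 bp over all genes with a promoter peak. With summits up to 2000 bp from the TSS, where the strongest one can lie further out, the members' median was 910.5 bp. Within 150 bp of the TSS lay 7 of the 8 (87.5%), beside 39.8% of all genes, and 7 lay upstream (87.5%), beside 82.9%. This closeness was not particular to the members. Of cytoplasmic ribosomal protein genes with a promoter peak, 55 of 66 (83.3%) had it within 150 bp. For vacuolar ATPase genes it was 5 of 10, and for the pathway list 5 of 11 (45.5%). In height the 8 summits of the members stood lower in the optimal set, with a median rank of 4103 of 7426 (55.3% of the way down the list). All genes with a promoter peak had a median of 2648 (35.7%). Among candidates, core and cap genes had median ranks of 5909 in replicate 1 and 6672 in replicate 3, beside 6120 and 6379 of all genes. By its nearest optimal summit, the last member inside the 1000 bp distance was Rpn11 at 131 bp, and the next ones outside it were Prosbeta6 at 1101 bp and Prosalpha4 at 1788 bp. The 24 core and cap genes without a peak had their nearest optimal summit at a median of 6638 bp (1101 to 36497), beside 9293 bp for all genes without one. For the related copies the range was 3431 to 60628 bp.

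**Figure D3:**
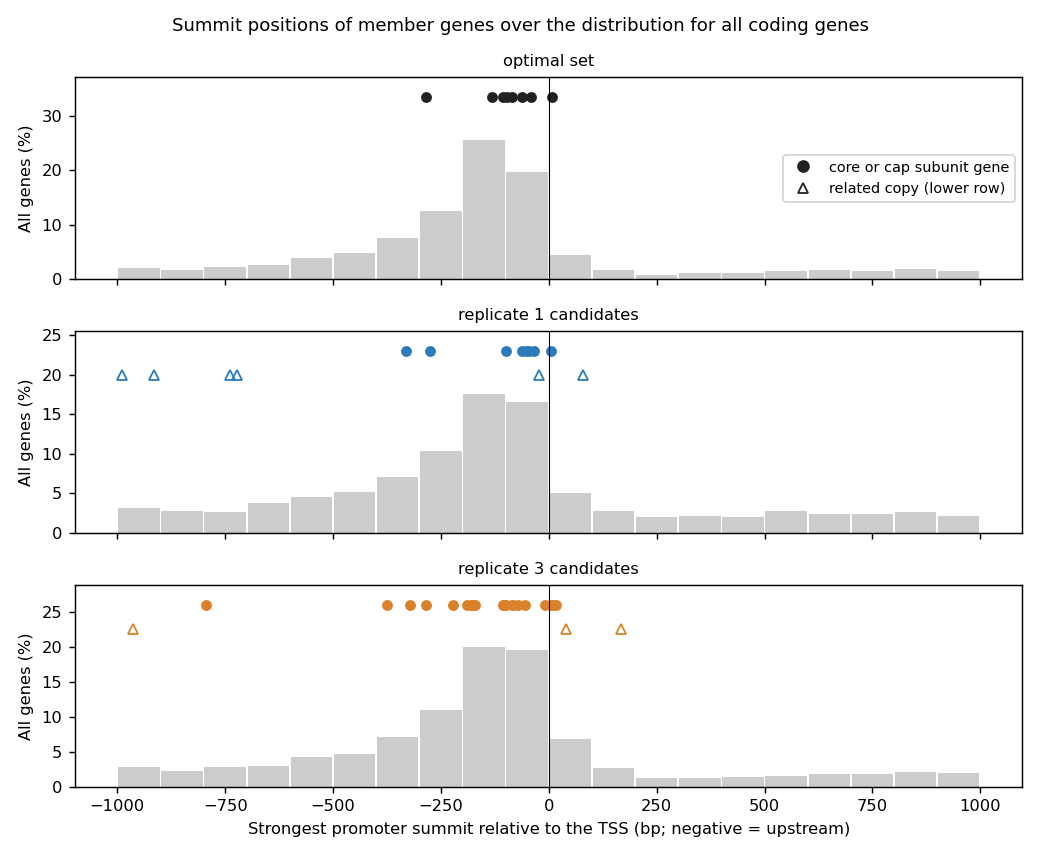
Distance in bp from the TSS to the strongest promoter summit of each core or cap gene (filled points) and related copy (triangles), over the distribution for all protein-coding genes with one (grey bars, percent of those genes), for the optimal set and each replicate. In the optimal set the 8 members lie between 284 bp upstream and 7 bp downstream.

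Several of these summits lie between neighbouring genes. For 6 of the 8 members the summit was also within 1000 bp of a TSS of another protein-coding gene, as it was for 57.0% of all genes with a promoter peak. Rpn5 shared it with Hat1, a histone acetyltransferase gene, whose TSS was nearer (135 bp) than that of Rpn5 (284 bp). Prosbeta1 shared it with Rrp42, an exosome subunit gene, whose TSS was also nearer (36 against 85 bp). The summits of Rpn2 (shared with Slbp, the histone stem-loop binding protein gene), Rpn3 (with l(2)37Bb), Rpn13 (with CtsL1, which encodes cathepsin L) and Rpn11 (with qtc) were nearer to the proteasome gene. Which of the genes a shared peak belongs to cannot be told apart. Of the 32 core and cap genes, 19 (59.4%) have a protein-coding gene that starts in the opposite direction within 1000 bp upstream, as do 35.2% of all genes. An optimal promoter peak was present at 5 of those 19 (26.3%) and 3 of the other 13 (23.1%). Over all genes the shares were 39.8% and 17.3%. This count of neighbours was added after the values were seen.

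Optimal peaks also lay near the genes but away from their promoters. Within 2500 bp of the 48 gene bodies lay 27 optimal peaks, of which 18 were not at the promoter of the member. The same count over all genes was not made, so it says nothing particular about the members. The highest was 220 bp past the 3′ end of Rpn5, at rank 47 of the optimal set, with ranks of 50 and 45 in replicates 1 and 3. Its region was chr3R:5791513-5791984 with a signal of 2273, and it lies within 1000 bp of a TSS of Hpf1. Prosalpha4, without an optimal promoter peak, has 3 optimal peaks beyond its 3′ end, at ranks 398, 1498 and 4729, all within 1000 bp of a TSS of eas, the ethanolamine kinase gene. Rpn3 was the member with an optimal summit inside the gene body, the one 7 bp past its TSS.

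**Figure D4:**
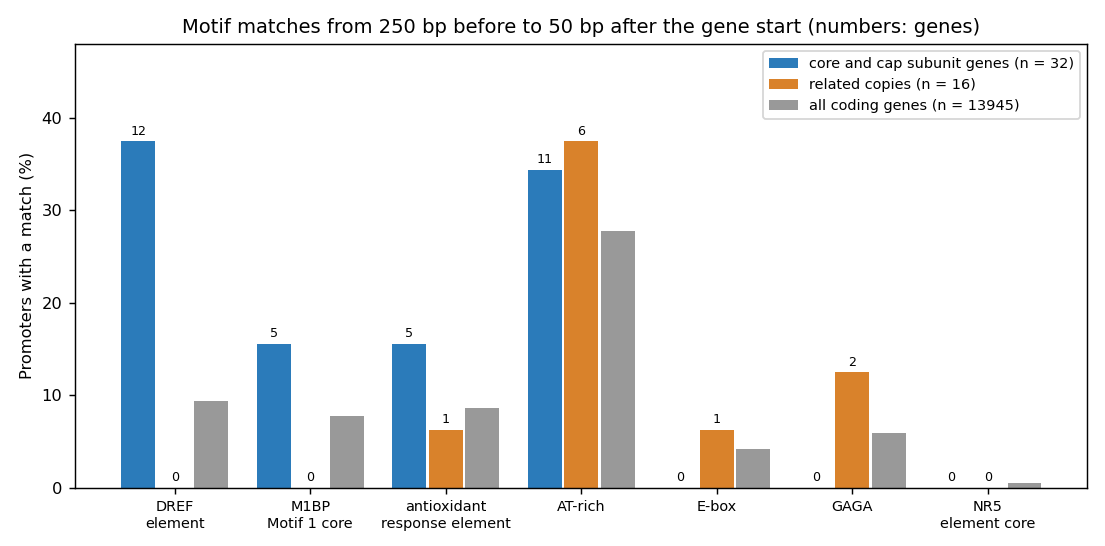
Share of promoters (percent) that hold each motif between 250 bp upstream and 50 bp downstream of the gene start, for the 32 core and cap genes, the 16 related copies and all protein-coding genes (grey), with the number of genes over the member bars. The DREF element is at 37.5%, 0% and 9.37%.

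Several of the genes carry, close to their start, the letters of the element bound by DREF, a factor known in flies for genes of replication and growth. The letters TATCGATA were found between 250 bp upstream and 50 bp downstream of the gene start in 12 of the 32 core and cap genes (37.5%), in 0 of the 16 copies and in 9.37% of all protein-coding genes. This search of the promoters was added after the values were seen. The 12 were Prosalpha3, Prosalpha5, Prosalpha6, Prosbeta1, Prosbeta2, Prosbeta6, Rpn3, Rpn7, Rpn9, Rpn12, Rpn13 and Rpt5. Core (6 of 14) and cap (6 of 18) both contribute. The core and cap promoters also held less G and C, 34.6% ± 6.25 (SD, n = 32 genes) beside 39.1% ± 7.73 (SD, n = 13945). The difference was smaller than either SD, but these SDs measure the scatter between genes, not the uncertainty of a mean. The difference was not tested. The related copies, without the element, were at 35.7% ± 8.0 (SD, n = 16). The part of base composition in the share was not tested.

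The 48 bases around the element are printed for 6 genes, 2 with an optimal promoter peak (Rpn3 and Rpn12) and 4 without one, to show how the letters sit in genes with and without such a peak. TATCGATA is in capitals, and each sequence is read 5′ to 3′ on the strand of the gene, from the RefSeq copy of dm6. The windows are chr2L:19051573-19051620 for Rpn3, chr3L:16582792-16582839 for Rpn12, chr2L:10221315-10221362 for Prosalpha6, chr3L:14999921-14999968 for Prosbeta2, chr3L:16610435-16610482 for Prosbeta6 and chr3R:23752810-23752857 for Rpt5.
Rpn3: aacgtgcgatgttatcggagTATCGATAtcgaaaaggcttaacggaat
Rpn12: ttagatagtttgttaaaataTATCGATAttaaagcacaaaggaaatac
Prosalpha6: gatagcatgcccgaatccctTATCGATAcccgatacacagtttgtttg
Prosbeta2: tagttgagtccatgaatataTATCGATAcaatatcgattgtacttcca
Prosbeta6: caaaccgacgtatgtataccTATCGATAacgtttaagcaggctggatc
Rpt5: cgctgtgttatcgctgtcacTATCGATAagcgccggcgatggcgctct

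The element starts 197 bp upstream of the gene start in Rpn3, 216 bp in Rpn12, 16 bp in Prosalpha6, 10 bp in Prosbeta2, 44 bp in Prosbeta6 and 46 bp in Rpt5. In the genes with a peak, it lay 32 bp from the summit in Prosbeta1, 45 bp in Prosalpha5, 116 bp in Rpn12, 172 bp in Rpn13 and 200 bp in Rpn3. An optimal promoter peak was found at 5 of the 12 core and cap genes with the element (41.7%) and at 3 of the 20 without it (15.0%). Over all genes these shares were 33.8% and 24.3%. At this number of genes the difference rests on few cases, and it was not tested.

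In the 101 bases around the 8 optimal summits, TATCGATA was found in 2 (Prosalpha5 and Prosbeta1) and in 2.56% of all optimal summits at promoters. With 25 bp to each side it was found in 0 of the 8, and in 1 of 7 top regions when replicate 3 was left out. CTATCGA, which can overlap it, was in 1 (Prosbeta1; 4.34% of all), and TTTAAAA in 1 (Rpn2; 14.1% of all). The letters CAAGGTCA, the core of the element bound by NR5 receptors such as Hr39, were in none of the 8 and in 0.281% of all. Also without a match at the 8 summits were GGTCACAC, the core of the M1BP motif (1.16% of all), TGACNNNGC, the antioxidant response element of Cnc-type factors (2.28%), CACGTG (0.937%) and GAGAGAG (1.16%). Both strands were searched. In the promoters of core and cap genes, CAAGGTCA, CACGTG and GAGAGAG were not found in any of the 32, beside 0.495%, 4.24% and 5.87% of all genes. GGTCACAC was found in 5 (Prosalpha2, Prosalpha4, Prosbeta3, Rpn1 and Rpn7; 15.6%, beside 7.71% of all genes), and TGACNNNGC in 5 (Prosalpha2, Prosbeta3, Rpn1, Rpn7 and Rpt6; 15.6%, beside 8.64%). None of the genes in these last 2 groups, which share Prosalpha2, Prosbeta3, Rpn1 and Rpn7, had an optimal promoter peak. Over all genes, 34.9% of those with GGTCACAC and 26.5% of those with TGACNNNGC had one. The absence rests on few genes and was not tested. CTATCGA was found in 7 (21.9%, beside 12.4%) and TTTAAAA in 11 (34.4%, beside 27.8%).

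Genes that act with the proteasome were counted from a list of 23, of which 11 had an optimal promoter peak (47.8%, beside 25.2% of all genes). The share of the list with a top region was 47.8% ± 12.3 (SD, n = 2 replicates), beside 26.2% ± 2.57 of all genes. It was 39.1% in replicate 1 and 56.5% in replicate 3, beside 24.4% and 28.0% of all genes. The SD does not cover the small number of genes in the list, and the difference was not tested. Among the regulators of subunit genes, cnc, the Nrf-type activator, had its peak 316 bp downstream of a TSS at optimal-set rank 548, with ranks of 594 and 510 in replicates 1 and 3. Keap1, the inhibitor of Cnc, had one at ranks 453, 493 and 422, 839 bp upstream of its TSS and shared with kuk. Both stood as high as Rpn5 in all 3 lists. Pngl, the N-glycanase that in mammals processes the Nrf1 factor, had one at optimal-set rank 3691 and replicate 3 rank 4516, and replicate 1 lacked a candidate there. The Cnc partner gene maf-S had candidates in both replicates (ranks 3245 and 3551) but none in the pooled list and no optimal peak.

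Among assembly factors and adaptors, 3 of 6 had a peak. Each group count here stands beside 25.2% of all genes. Pomp, a chaperone of core assembly, had optimal-set rank 2673 and replicate 3 rank 2366, and replicate 1 lacked a candidate there. The ranks of ntc, which encodes an F-box protein that binds PI31, were 2058, 2242 and 1997 for the optimal set and for replicates 1 and 3. PI31, a proteasome regulator, had ranks of 4176, 3820 and 4907. The activator REG, Sem1 and CG8858, the counterpart of yeast Ecm29, had no optimal peak. Of the shuttles and receptors (Rad23, Ubqn and rngo) 0 of 3 had one, and of the deubiquitinases (Uch-L5 and Usp14) 0 of 2. For ubiquitin and its activation it was 3 of 4, namely the polyubiquitin gene Ubi-p63E (ranks 2500, 2891 and 1988), eff, a ubiquitin-conjugating enzyme (2594, 2259 and 3051), and Uba1, the activating enzyme (4809, 4863 and 5047), but not Ubi-p5E. In the segregase group it was 2 of 4, with Npl4 at ranks 5688, 8838 and 4490 and Ufd1 at 7274, 6131 and 8916. TER94, the segregase itself, and p47 had no optimal peak. Rpn13 and Rpn12 ranked near PI31, and Rpn2 and Prosalpha5 between Npl4 and Ufd1.

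The core and cap genes had a lower share of optimal promoter peaks (25%) than cytoplasmic ribosomal protein and vacuolar ATPase genes, by the same distance rule. No other family of housekeeping genes was counted. The sets were not built alike, since no copies were set apart in the other families. With the related copies kept, the proteasome share was 16.7%. Cytoplasmic ribosomal protein genes had an optimal promoter peak at 66 of 92 (71.7%), with top regions at 72.8% ± 7.69 (SD, n = 2), and vacuolar ATPase genes at 10 of 27 (37.0%), with top regions at 37.0% ± 5.24 (SD, n = 2). For core and cap genes the value was 29.7% ± 11.0 (SD, n = 2). It was below that of the ribosomal genes in replicate 1 (21.9% and 67.4%) and in replicate 3 (37.5% and 78.3%). Against the vacuolar ATPase genes the replicates went opposite ways. In replicate 3 alone the core and cap share of top regions (37.5%) was above that of the vacuolar ATPase genes (33.3%), and in replicate 1 it was below (21.9% and 40.7%). None of these differences was tested, since the replicates number 2. In all candidates the ribosomal genes had 70 of 92 in replicate 1 (76.1%) and 84 in replicate 3 (91.3%). Vacuolar ATPase genes had 14 and 12 of 27 (51.9% and 44.4%), and core and cap genes 8 and 21 of 32 (25% and 65.6%). As a share, the rise from replicate 1 to replicate 3 was thus largest at core and cap genes among these 3 sets. The ribosomal share was too high in replicate 1 for an equal rise, so the comparison with that family cannot show that the gap was particular to core and cap genes. The pathway list, with 12 and 20 of 23, was also higher in replicate 3.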

How the data were processed

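Per the labels, an anti-GFP antibody was used on sonicated chromatin of whole white prepupae in 2 replicates. Per the deposited notes, a candidate list derives from 1 control alignment and the alignments of either replicate or both, and the optimal set derives from the replicate and pooled lists. The signal value of each region is the authors' and was used to rank regions within a list. Depth is unknown, and the control was not analysed here. An aligner or a peak caller is not given in the sources used here.

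Regions of the dm6 lists on 6 arms were used, which left out 18 optimal regions. Coordinates are 1-based. Genes and TSSs came from Ensembl release 115, without transposable elements, and bases from the RefSeq copy of the same assembly. Summits counted as shared within 100 bp. Motifs were searched on both strands, 50 bp to each side of summits. Python 3.11.15, pandas 2.3.3, numpy 2.4.6 and matplotlib 3.10.9 were used, and the assignment of summits and the motif search were tested on simulated data. All members were named once, by their optimal promoter peak. The 8 members with one have values in each list that holds a candidate for them, which leaves out replicate 1 for Prosbeta1 and Rpn11. Pathway genes with an optimal peak are named with rank. Of the pathway list, Ufd1 and CG8858 were matched by synonym. Alternatives were other distances, the gene 5′ end, region overlap, other thresholds, other windows and each replicate left out. The group, lists and motifs were chosen with earlier results of these data known, although the rule for members uses symbols alone. The replicates are separate biological samples per the labels, and an SD over 2 of them is a rough measure of spread.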

Additional observations from a re-analysis of the deposited data

How the results depend on the processing

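No paired analysis was possible because the series holds 1 group. For the main counts, medians and means, 56 alternatives stayed near the reported value and 18 moved. A count up to a ratio of 1.5 from the reported one was called near, as with 12 members against 8. With optimal peaks above the median signal, 2 members, 0 core genes, 2 cap genes, 7 pathway genes and 2225 of all genes had a promoter peak, the median rank was 10.8% of the way down the list and the median distance 146 bp. In the whole pooled list, 15 members, 4 copies and 6072 of all genes did. At 2000 bp to a TSS, 4 core genes did, with a median distance of 910.5 bp for the members, and at 250 bp 2305 of all genes did. Leaving out a replicate gave 7 to 12 members, 2 to 3 core genes, 5 to 9 cap genes, 0 copies, 9 to 13 pathway genes and 3401 to 3907 of all genes, with a median rank of 56.9% to 76.7% of the list, a median distance of 61.0 to 91.5 bp and a mean GC of 33.3% to 34.1%, against 30.1% in the optimal set. With 100 bp to each side of summits, the mean GC was 32.0%. Of the motif counts at summits, 25 alternatives stayed near the reported value and 7 moved, each by 1 or 2 summits of TATCGATA, CTATCGA or TTTAAAA. The causes were not tested. Depth is unknown.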
